A study of Mus musculus with 8 samples.

Results

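Oxidative phosphorylation genes encode the subunits of the mitochondrial respiratory chain and of the ATP synthase. They were taken here as all genes whose annotated symbol begins with Nduf (a, b, c, s or v), Uqcr, Cox4 to Cox8 or Atp5, or is one of Sdha, Sdhb, Sdhc and Sdhd. Of the 18193 genes measured, 90 met this rule, each read from its brightest probe set that carries a single gene symbol. They comprise 34 complex I genes, 8 complex I assembly factors (the Ndufaf genes), 4 of complex II, 8 of complex III, 19 of complex IV and 17 of the ATP synthase. Ndufa4, named for complex I but a subunit of complex IV, and its paralogue Ndufa4l2 were counted with complex IV.

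Complexes I and II pass electrons from NADH and succinate to coenzyme Q. Complex III passes them on to cytochrome c and complex IV to oxygen, and complexes I, III and IV pump protons that drive the ATP synthase. Resting stem cells, those of the hair follicle included, are generally described as leaning on glycolysis, with respiration rising as cells begin to differentiate.

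The study compared skin cells of wild-type mice (WT) and of mice with a doxycycline-inducible Runx1 transgene (Runx1 iTG, described as Tet-on), on 8 Affymetrix arrays. All mice, the controls included, were on doxycycline food (1 g/kg) for 1 day, which the labels say serves to repress H2BGFP. Their follicles were at rest (telogen) on postnatal day 20. The second replicate of each transgenic population is the exception, at day 21. From each genotype, keratinocytes positive for K15-GFP and α6 integrin were sorted into CD34-positive cells (labelled bulge, the stem cell niche) and CD34-negative cells (labelled hair germ), with 2 arrays per group. The promoter that drives the transgene, and whether both populations of a replicate came from the same mice, are not given in the sources used here. The labels call the samples biological replicates without naming animals, so p-values measure only the spread between these samples.

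The arrays matched their genotype and CD34 labels. Runx1 signal was 489 to 903 on the 4 WT arrays and 12103 to 19454 on the 4 transgenic arrays. The follicle labels were matched in part. All 7 bulge markers were higher in the CD34-positive cells, with Cd34 at least 244-fold higher. All 6 hair germ markers were lower in the cells labelled hair germ, with summed signals of 2229 to 3381 there and 18020 to 20415 in the bulge. All 4 sebocyte markers were higher in the cells labelled hair germ (summed signals 25641 to 38193, against 2960 to 9296 in the bulge). These cells are therefore called CD34-negative cells below. Replicate 1 of every group had Y-linked signal (Eif2s3y 1852 to 2424, against 2.41 to 22.1 in replicate 2), and replicate 2 had Xist signal of 9970 to 11099, so each group paired a male-typed with a female-typed sample. Background was a signal of 31.1, set from bacterial control probe sets. Above it lay 73.6% to 77.0% of probe sets on bulge arrays and 69.0% to 73.7% on CD34-negative arrays. The median deposited signal was 132 to 162 on bulge arrays and 102 to 127 on CD34-negative arrays, which do not overlap. The part of this in the population difference was not tested. Precision is limited by the small number of arrays.

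Of the 90 oxidative phosphorylation genes, 85 lay above background on all 8 arrays, and 1, Cox7b2, a testis isoform, lay below it on every array. The mean signals of the chosen probe sets ran from 5.13 to 20970. A signal depends on the probe set as well as on the RNA, so each gene was compared across arrays and not with other genes.

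The clearest difference lay between the sorted populations. Averaged over both genotypes, 85 of the 90 genes were higher in CD34-negative than in bulge cells, and 53 rose past the threshold (limma, adjusted p under 0.05, n = 4 arrays against 4). That is 58.9% of the members, against 9.17% of all genes called higher. One member fell, Ndufa4l2, against 9.11% of all genes called lower. The median member differed by 0.79 on the log2 scale, and the median of all genes by -0.09. Since most members were read from probe sets of high signal, the same was counted for the 1820 genes at or above the 90th percentile of mean signal, of which 21.3% rose and 12.4% fell, with a median of 0.15. For 56 members all 4 CD34-negative arrays lay above all 4 bulge arrays, and for 1 member below, against 10.8% and 11.6% of all genes. In sorted bulk samples, a change in the make-up of the sort and a change of RNA per cell cannot be told apart.

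**Figure D1:**
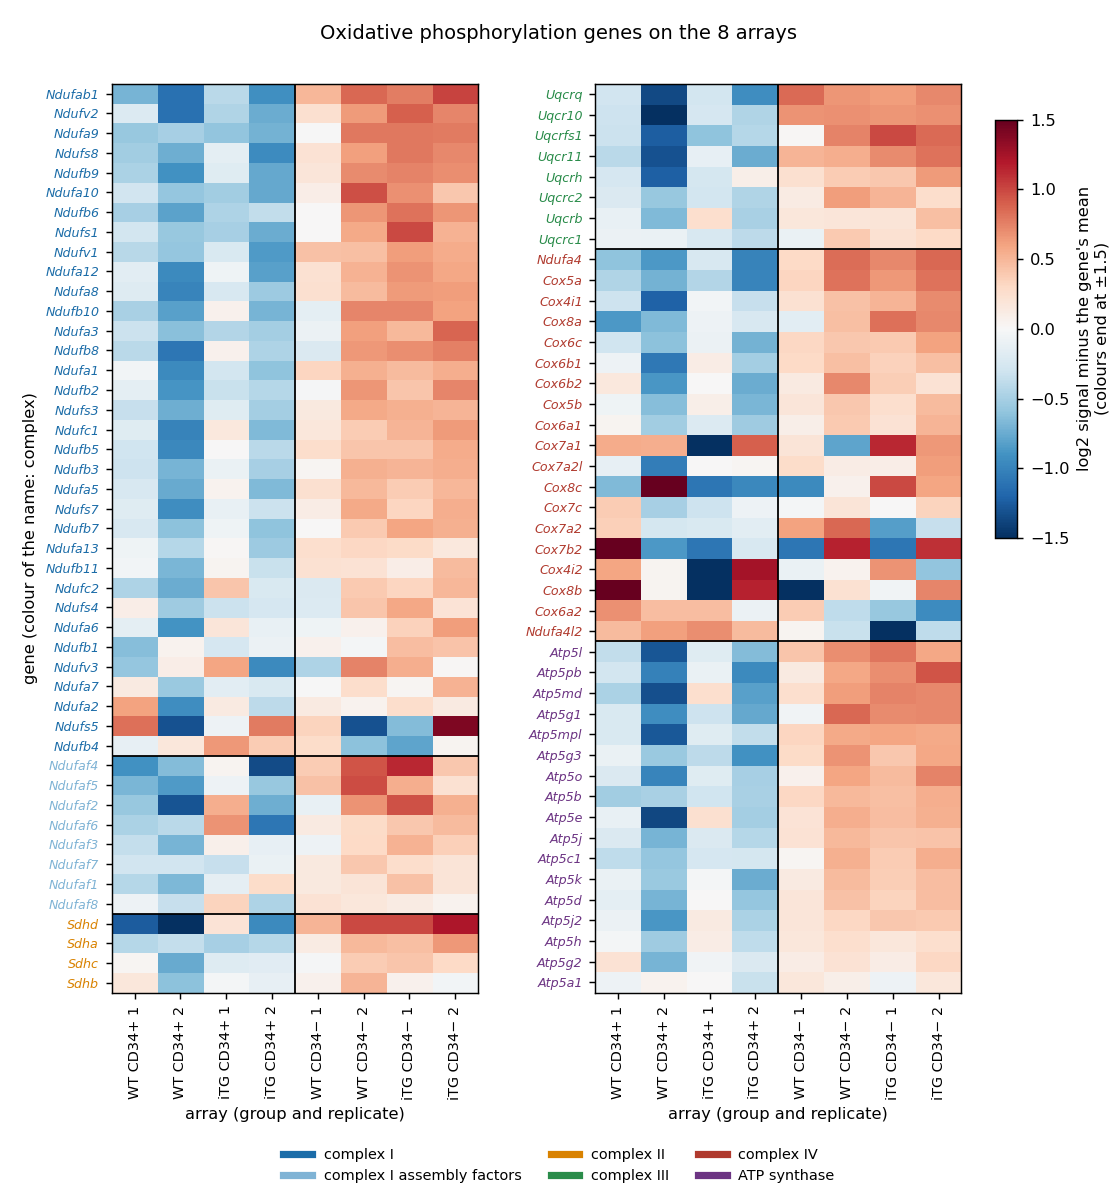
Heat map of log2 signal minus each gene's mean over the 8 arrays, with genes as rows (grouped by complex, the name's colour) and arrays as columns. CD34+ are bulge cells, CD34− are CD34-negative cells, and iTG is Runx1 iTG. The 4 CD34-negative arrays are mostly red and the 4 bulge arrays mostly blue, with WT bulge replicate 2 the darkest blue column; the mixed rows within complex IV include isoforms near background and Cox7a2, whose signals are well above it.

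Markers of other cells moved with this difference. The sebocyte and hair germ markers are given above. Of 6 adipocyte markers, Cidea rose and Fabp4 fell. Melanocyte markers, 2 of 7 of them called lower (Dct and Mitf), summed to 464 to 1152 in CD34-negative cells and to 2161 to 4568 in bulge cells. Of 4 keratinocyte markers Krt5 and Trp63 fell, and of 6 immune markers Lyz2 fell. Fibroblast markers, 3 of 6 of them called lower, summed to 250 to 700 in CD34-negative cells and to 4832 to 9159 in bulge cells. None of 10 striated muscle markers was called, with summed signals of 211 to 531 over the 8 arrays. The ratio of 3′ to 5′ Gapdh signal was 1.90 to 2.35 on CD34-negative arrays and 2.29 to 2.88 on bulge arrays. These overlap only through replicate 1 of WT, at 2.35 in CD34-negative and 2.29 in bulge cells. In Runx1 iTG the ratios were 1.90 and 1.94 in CD34-negative and 2.88 and 2.38 in bulge cells. That of actin was 0.951 to 1.01 on CD34-negative arrays and 0.936 to 1.04 on bulge arrays. The part of these in the result was not tested.

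The rise was seen in each complex, and differences between complexes were not tested. The median difference between CD34-negative and bulge cells was 0.86 for complex I, 0.70 for complex II, 1.06 for complex III, 0.59 for complex IV and 0.87 for the ATP synthase, on the log2 scale. Genes called higher numbered 23 of 34 in complex I, 2 of 4 in complex II, 6 of 8 in complex III, 7 of 19 in complex IV and 12 of 17 in the ATP synthase. Of the 8 complex I assembly factors, 3 were called, with a median of 0.60.

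**Figure D2:**
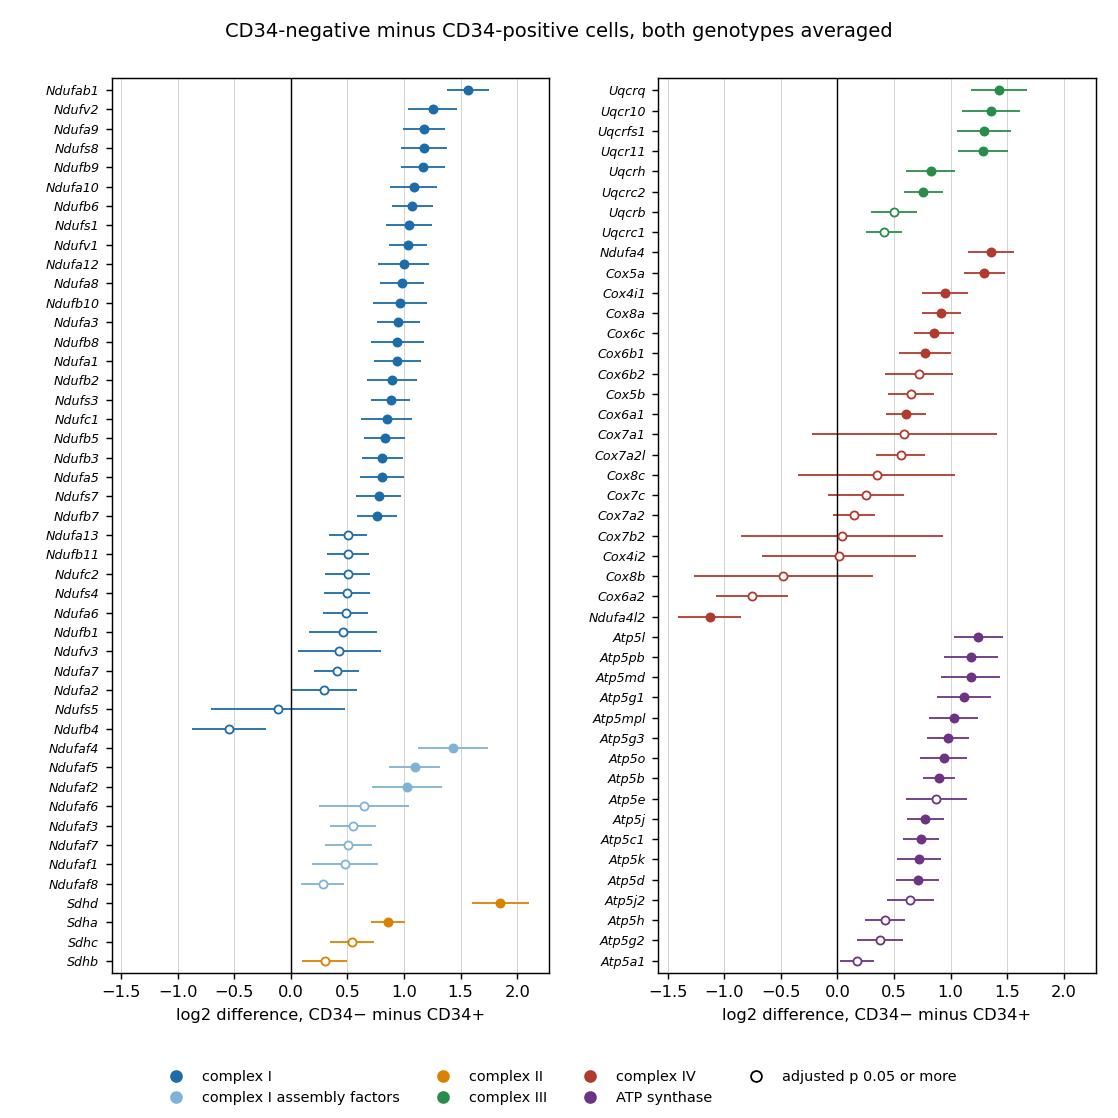
Difference in log2 signal between CD34-negative and bulge cells, averaged over both genotypes, for each of the 90 genes. Points are limma estimates, bars are ± 1 SE, and filled points passed an adjusted p of 0.05. Sdhd lies farthest to the right at 1.85, and Ndufa4l2 is the filled point left of 0, at -1.13.

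In complex I, all 6 measured core catalytic subunits rose, with a median of 1.04. Ndufv1, which holds the NADH-binding site, differed by 1.04 ± 0.17 (SE), and the iron-sulphur subunits Ndufv2, Ndufs1 and Ndufs8 by 1.25, 1.04 and 1.17. Of the 28 accessory subunits, 17 rose. The largest of these differences was that of Ndufab1, which is also the mitochondrial acyl carrier protein. Its signals were 2264 and 1691 in WT bulge, 2762 and 1941 in Runx1 iTG bulge, 5168 and 6662 in WT CD34-negative cells, and 6233 and 7390 in Runx1 iTG CD34-negative cells. Every CD34-negative array thus lay above every bulge array. The difference was 1.57 ± 0.18 (limma, adjusted p = 0.00034, n = 4 against 4). Ndufa9, an accessory subunit near the quinone site, differed by 1.18 (adjusted p = 0.0021 by limma). The 2 members of complex I that were lower, Ndufb4 (-0.55) and Ndufs5 (-0.11), did not pass. For both, other probe sets list several symbols and were left out by the rule.

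Among the assembly factors, Ndufaf4 and Ndufaf5 differed by 1.43 and 1.10 (limma, adjusted p = 0.010 and 0.0079). Ndufaf2 reached 1.03 at an adjusted p of 0.047 by limma. Its call was lost on leaving out any array except Runx1 iTG bulge replicate 1. Ndufaf4 lost its call without WT bulge replicate 1, WT CD34-negative replicate 2 or Runx1 iTG CD34-negative replicate 1.

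Complex II couples the citric acid cycle to the chain, and its 4 subunits were read in full. Sdhd, a membrane anchor, had the largest difference of any member. Its signals were 1677 and 1219 in WT bulge, 4611 and 2062 in Runx1 iTG bulge, 5674 and 7924 in WT CD34-negative cells, and 7917 and 9259 in Runx1 iTG CD34-negative cells. The populations did not overlap, and one transgenic bulge array stood above the other 3 bulge arrays. The difference was 1.85 ± 0.25 (limma, adjusted p = 0.00085), a 3.61-fold change, and the gene's other probe set gave 1.30. Sdha, the flavoprotein that oxidises succinate, differed by 0.86 (limma, adjusted p = 0.0034). Averaging it with its dim probe sets gave 0.54 and an adjusted p of 0.26 by limma. The other anchor, Sdhc, differed by 0.54 (adjusted p = 0.088) and the iron-sulphur subunit Sdhb by 0.30 (adjusted p = 0.36), neither past the limma threshold. The other probe set of Sdhc read 0.85 and passed (limma over all probe sets, adjusted p = 0.0053).

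Complex III had the highest median. Uqcrfs1, the Rieske iron-sulphur protein, differed by 1.30 ± 0.24 (limma, adjusted p = 0.0043). The small subunits Uqcr10, Uqcr11 and Uqcrq differed by 1.36, 1.29 and 1.43. For Uqcrq this holds for the brightest of 4 probe sets, and the mean of all 4 gave -0.21 (limma, adjusted p = 0.75). Of the core proteins, Uqcrc2 rose (0.76) and Uqcrc1 did not pass (0.41, adjusted p = 0.11 by limma). Uqcr10 signals were 3356 and 1284 in WT bulge, 3501 and 3038 in Runx1 iTG bulge, and between 6603 and 6722 on the 4 CD34-negative arrays. The CD34-negative arrays lay close together, and WT bulge replicate 2 was the lowest array.

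In complex IV, 7 of 10 subunits in common use rose, with a median of 0.81. Cox5a differed by 1.30 ± 0.18 (limma, adjusted p = 0.0010), with its 3 probe sets at 1.24 to 1.30. Cox4i1, Cox8a and Cox6c differed by 0.95, 0.92 and 0.86, and Cox4i1 lost its call without WT CD34-negative replicate 2 or Runx1 iTG bulge replicate 2. Cox6b1 (0.77) and Cox6a1 (0.61) passed narrowly, each with a limma adjusted p of 0.042. Cox6b1 lost its call on leaving out any array other than WT bulge replicate 1 or Runx1 iTG bulge replicate 1. Cox6a1 lost it on leaving out any array but WT bulge replicate 1.

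Of the 8 tissue-restricted isoforms of complex IV, only Cox6a2, Cox6b2 and Ndufa4l2 were above background on all 8 arrays, so most could not show a difference reliably. No test compared them with the common subunits, and 0 were called higher. The muscle isoforms Cox6a2 and Cox8b differed by -0.76 and -0.48, and Cox7a1, the heart and skeletal muscle isoform, by 0.59. The testis isoforms Cox6b2, Cox7b2 and Cox8c differed by 0.72, 0.04 and 0.35, and Cox4i2, known from lung and hypoxia, by 0.01. The eighth is Ndufa4l2, which fell. Cox7b2 and Cox8c were below background in both populations. The 5 dim isoforms turned sign when some array was left out, Cox4i2 ranging from -0.77 to 0.80.

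Ndufa4 and its paralogue Ndufa4l2, known to be induced by hypoxia, moved in opposite directions. Ndufa4 signals were 2947 and 2466 in WT bulge, 3783 and 2238 in Runx1 iTG bulge, 5526 and 7987 in WT CD34-negative cells, and 7404 and 8147 in Runx1 iTG CD34-negative cells. Ndufa4 rose by 1.36 ± 0.20 (limma, adjusted p = 0.0015). Ndufa4l2 read 804 and 885 in WT bulge, 935 and 805 in Runx1 iTG bulge, 595 and 459 in WT CD34-negative cells, and 193 and 443 in Runx1 iTG CD34-negative cells. For both genes the populations did not overlap, Ndufa4 with the CD34-negative arrays above and Ndufa4l2 with them below. Ndufa4l2 fell by 1.13 on the log2 scale (SE 0.28, limma adjusted p = 0.019). Its call was lost in 5 of 8 fits that each left out 1 array (WT bulge replicate 1 or 2, WT CD34-negative replicate 2, Runx1 iTG bulge replicate 1 or 2), with adjusted p up to 0.079.

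In the ATP synthase, the catalytic subunit Atp5b rose by 0.90 ± 0.14 (limma, adjusted p = 0.0017). Its partner Atp5a1 differed by 0.17 ± 0.15 (limma, adjusted p = 0.49), with signals of 16701 to 21700 in bulge and 19831 to 23601 in CD34-negative cells, which overlap. Of the other probe sets of Atp5a1, 1 read 0.21 and 1 read 1.08, the latter past the threshold (limma over all probe sets, adjusted p = 0.0016). The 3 genes for the same proton-carrying c subunit read 1.12 for Atp5g1, 0.98 for Atp5g3 and 0.38 for Atp5g2, the last short of the threshold (limma, adjusted p = 0.24). Atp5g1 lost its call without WT or Runx1 iTG bulge replicate 2. In the membrane part, Atp5l and Atp5md differed by 1.24 and 1.18, and in the peripheral stalk Atp5pb by 1.18. Atp5md lost its call without replicate 2 of WT bulge or WT CD34-negative cells. All 17 members of the ATP synthase were higher in CD34-negative cells.

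Another probe set with a mean above background was at hand for 49 of the 90 members. Of the 83 such probe sets, 70 were higher in CD34-negative cells. The 13 of them that lay opposite to their gene's chosen probe set belonged to 11 genes and were dim, with mean signals of 41.8 to 343. Of all 89 other probe sets, dim ones included, 43 were called higher and 0 lower in a limma fit over all probe sets. The share of all probe sets called in that fit was not counted.

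The difference was also estimated in each genotype. The 2 genotypes share no array, but the model pools the spread over all 8. In WT, 81 of 90 genes were higher in CD34-negative cells with a median of 0.79, and 14 rose (15.6%), against 3.14% of all genes called higher and 3.79% called lower. In Runx1 iTG, 86 were higher with a median of 0.75, and 23 rose and 1 fell, against 4.5% called higher and 5.26% called lower. Of these calls 10 were shared, which is 71.4% of the WT calls and 41.7% of the transgenic calls. The sign was the same in both genotypes for 83 members, higher in 80 and lower in 3. Over the 85 members above background on all arrays, the 2 differences had a Pearson r of 0.80 and a Spearman rho of 0.78, given as a description because genes share their arrays. Over all 90 they were 0.44 and 0.65. Fitted on the arrays of 1 genotype alone, 3 members were called in WT and 7 in Runx1 iTG. Over all 18193 genes these fits called 752 and 832. The share of the 90 members called was thus below that of all genes in WT and above it in Runx1 iTG. With 2 arrays a group, the counts rest on single arrays. The WT count was 0 without WT bulge replicate 2 or WT CD34-negative replicate 2, and 7 without WT CD34-negative replicate 1. The transgenic count of 24 was 15 without bulge replicate 1, 1 without bulge replicate 2, 2 without CD34-negative replicate 1 and 5 without CD34-negative replicate 2. The averaged count of 54 was 34 without WT bulge replicate 2, 29 without WT CD34-negative replicate 2 and 33 without Runx1 iTG bulge replicate 2. The averaged median stayed between 0.66 and 0.91 over the 8 fits that left out 1 array each.

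**Figure D3:**
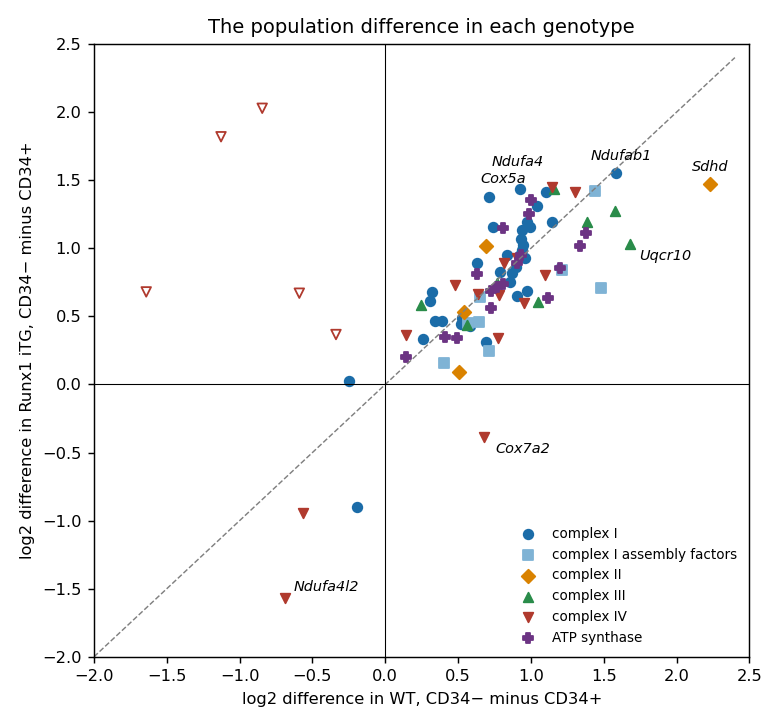
The log2 difference between CD34-negative and bulge cells in WT (horizontal) against that in Runx1 iTG (vertical), 1 point per gene, with shape and colour by complex. Open points are the 5 genes not above background on all 8 arrays, and the dashed line marks equal differences. Most filled points lie near the line above 0; Cox7a2 lies apart, higher in WT (0.68) and lower in Runx1 iTG (-0.39).

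The members also varied together within groups. Expressed against each gene's own mean, the median member stood at -0.23 and -0.70 on the WT bulge arrays and at -0.13 and -0.49 on the Runx1 iTG bulge arrays. It stood at 0.16 and 0.48 on the WT CD34-negative arrays and at 0.46 and 0.54 on the Runx1 iTG ones. Replicate 2 of both bulge groups was thus lower than replicate 1, while among CD34-negative arrays replicate 2 was the higher. The median of the genes at or above the 90th percentile of mean signal moved the same way, over a narrower range. It stood at -0.02 and -0.20 in WT bulge and at 0.08 and -0.14 in Runx1 iTG bulge. In CD34-negative cells it stood at 0.06 and 0.07 in WT and at 0.07 and 0.11 in Runx1 iTG. The part of this shift in the members' pattern was not tested. Complex III stood lowest, at -1.23, on WT bulge replicate 2. Across the 8 arrays, 69 of the 90 members correlated with the mean of the others at r above 0.8, and 6 correlated below 0, as a description over arrays that differ mainly by population. The genes outside the set with the most similar pattern over the 8 arrays were Cnih1 (r = 0.994), Cops6 (0.990), Psma1 (0.989), Chchd6 (0.989) and Cyc1 (0.989). Cyc1 encodes a subunit of complex III and is outside the set only by its symbol.

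**Figure D4:**
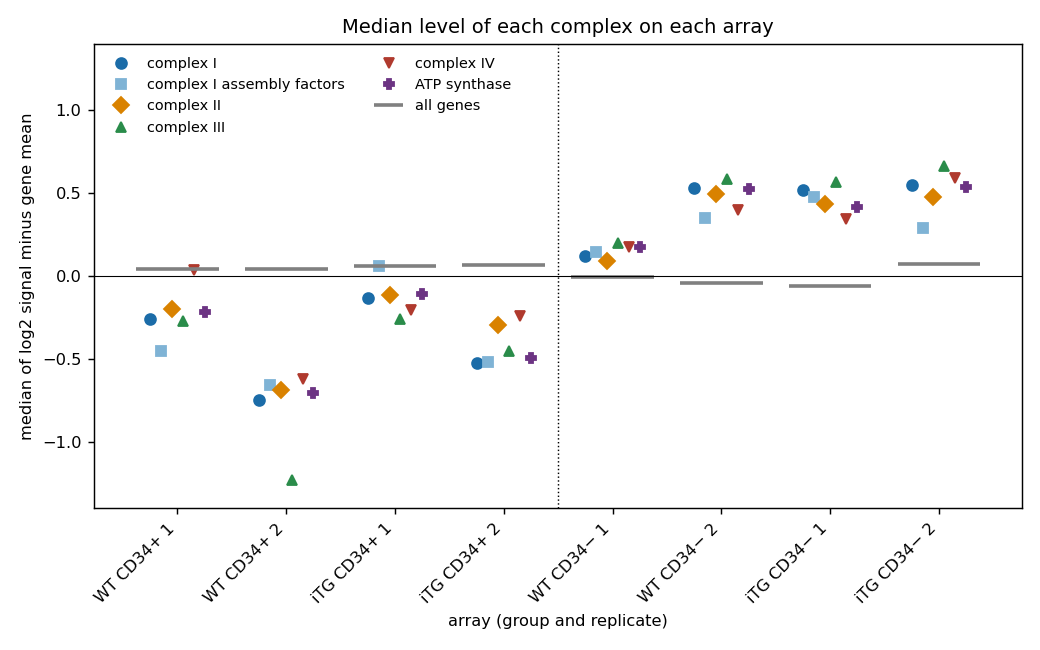
Median log2 signal minus gene mean for each complex on each array, with the median of all genes as a grey bar. Every complex lies above 0 on the 4 CD34-negative arrays; on WT bulge replicate 2 they lie lowest, down to -1.23 for complex III.

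The promoters of the members were searched for motifs of factors known to act on respiratory genes, and for the RUNX motif. A link between these motifs and the shared movement of the genes was not tested. RefSeq windows on GRCm38.p6 from 250 bases before to 50 after the start were at hand for 74 members and for 14368 of the measured genes. A gene was counted if either strand of any of its windows held the motif. The NRF1 motif (GCGCA, any base, GCGC) was present in 17 members (23.0%), against 8.63% of the measured genes. The YY1 motif AAGATGGC was present in 10 (13.5%, against 4.09%), and the GABPA motif CCGGAAG in 19 (25.7%, against 15.0%). The SP1 motif GGGCGG was in 47.3% of members and 57.5% of measured genes, and the RUNX motif TGTGGT in 12.2% and 16.0%. Median GC content was 59.0% in members and 58.3% in measured genes. The members with windows were split into 46 called higher in CD34-negative cells and 28 others. The shares were 23.9% and 21.4% for NRF1, 15.2% and 10.7% for YY1, and 30.4% and 17.9% for GABPA. The SP1 motif went the other way, with a lower share in the called members (20 of 46, against 15 of 28). The RUNX motif was in 6 of 46 and 3 of 28. A match is a run of letters and not a measured binding site.

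The sites below were picked from members that have both a called difference and a motif, to let the shared letters be seen. They do not show that motif and rise go together. Ndufa4, which rose, held none of the motifs searched, and Ndufab1, which rose, held no NRF1, YY1 or GABPA motif. Ndufb4, which was lower without a call, held NRF1 motifs. It was read from 1 probe set (mean signal 234), and its probe sets with several symbols were left out. Each site is 30 bases on the gene's strand, 5′ to 3′, and capitals mark the motif. The first 3, from Sdha, hold NRF1 motifs at 98, 55 and 10 bases before the start, at chr13:74350319-74350348, chr13:74350276-74350305 and chr13:74350231-74350260 (minus strand). Ndufaf4 holds one at chr4:24897960-24897989 (plus strand). The YY1 motif lies just after the start of Ndufa9 (chr6:126849097-126849126, minus strand), Ndufa3 (chr7:3617384-3617413, plus strand) and Ndufs7 (chr10:80249462-80249491, plus strand). In Atp5pb it reads on the opposite strand, across the start (chr3:105959248-105959277, minus strand).
Sdha NRF1 first: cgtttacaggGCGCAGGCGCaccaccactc
Sdha NRF1 second: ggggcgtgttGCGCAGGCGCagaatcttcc
Sdha NRF1 last: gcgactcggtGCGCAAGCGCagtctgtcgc
Ndufaf4 NRF1: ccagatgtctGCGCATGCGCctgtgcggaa
Ndufa9 YY1: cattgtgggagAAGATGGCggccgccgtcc
Ndufa3 YY1: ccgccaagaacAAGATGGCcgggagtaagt
Ndufs7 YY1: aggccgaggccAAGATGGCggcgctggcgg
Atp5pb YY1: atgtgcgagcgGCCATCTTgctcctgcccc

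For the member with the largest difference between populations, Sdhd, and the one set apart in the genotype comparison, Cox7a2, the 200 bases before the start are given. They lie at chr9:50603850-50604049 for Sdhd and chr9:79759854-79760053 for Cox7a2, both on the minus strand. Capitals mark an NRF1 motif and then a GABPA motif in Sdhd, and an SP1 motif in Cox7a2. GC content was 64.0% and 57.5%.
Sdhd: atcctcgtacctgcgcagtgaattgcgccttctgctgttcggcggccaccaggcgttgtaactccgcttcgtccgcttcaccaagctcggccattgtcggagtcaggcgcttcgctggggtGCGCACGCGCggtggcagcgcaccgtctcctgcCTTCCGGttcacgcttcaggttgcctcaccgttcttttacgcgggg
Cox7a2: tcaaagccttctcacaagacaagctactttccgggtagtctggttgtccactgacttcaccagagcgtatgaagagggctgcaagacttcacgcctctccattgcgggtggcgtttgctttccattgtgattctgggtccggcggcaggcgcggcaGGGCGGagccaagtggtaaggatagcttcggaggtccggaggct

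Induced Runx1 was the study's question, and no oxidative phosphorylation gene passed the threshold between genotypes. Runx1 itself was higher in the transgenic mice by 4.40 in bulge and 4.67 in CD34-negative cells on the log2 scale (limma, adjusted p = 0.00015 and 8.5e-05). Over all genes, limma called 0.022% in bulge cells, 0.0275% in CD34-negative cells and 0.0495% averaged, and 0 of the 90 members in each. The smallest adjusted p among members was 0.72, 0.21 and 0.25. At an unadjusted p under 0.05, 3 members were higher and 0 lower in bulge cells, against 3.21% and 2.75% of all genes. In CD34-negative cells the counts were 1 higher and 1 lower, against 3.55% and 3.23%.

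The members lay on both sides of 0 between genotypes, more of them higher in Runx1 iTG, and the counts depended on single arrays. In bulge cells 67 of 90 were higher (74.4%, against 52.0% of all genes and 61.0% of those at or above the 90th percentile of mean signal), with a median of 0.14 on the log2 scale against 0.02 for all genes. In CD34-negative cells 76 were higher (84.4%, against 52.7% and 54.1%), with a median of 0.15 against 0.03. The bulge count was 29 without WT bulge replicate 2 and 43 without Runx1 iTG bulge replicate 1, and the CD34-negative count was 46 without WT replicate 1. The bulge median was 0.41 without WT bulge replicate 1 and -0.09 without WT bulge replicate 2. In CD34-negative cells the fits without 1 array gave 0.01 to 0.31. Groups did not overlap for 12 members higher and 5 lower in bulge cells (17.3% and 16.4% of all genes), and for 25 higher and 4 lower in CD34-negative cells (19.9% and 15.8%). Over all 4 arrays against 4, no member had groups apart, against 1.47% and 1.07% of all genes. Such a separation was impossible for the 56 members whose CD34-negative arrays all lay above the bulge arrays, and for the 1 below. Only 10.8% and 11.6% of all genes were so bound, so members and all genes cannot be compared on this count.

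The precision bounds what these arrays could show. The median SE of a member gave a 95% interval of ± 0.65 around a genotype difference within one population. For 54 members in bulge and 57 in CD34-negative cells the interval lay within 1 log2 unit of 0, so a 2-fold change lay outside it. For the others a 2-fold difference was not excluded by the interval.

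Cox7a2, the subunit VIIa isoform used in most tissues, had the smallest p of any member in the genotype comparisons. Its signals were 9034 and 5859 in WT bulge, 5971 and 6286 in Runx1 iTG bulge, 10643 and 12766 in WT CD34-negative cells, and 3967 and 5532 in Runx1 iTG CD34-negative cells. Both transgenic CD34-negative arrays lay below both WT ones, and in bulge cells the genotypes overlapped. In CD34-negative cells the difference was -1.32 ± 0.26 (95% interval -1.90 to -0.73; limma, unadjusted p = 0.00058, adjusted p = 0.21). The gene's other probe set read -1.20. The test of whether the genotype difference itself differed between populations gave -1.07 (limma, unadjusted p = 0.017, adjusted p = 1.00). Cox7a2 was the only member under an unadjusted p of 0.05 in that test, and limma called 0 of 18193 genes, with 839 (4.61%) under an unadjusted p of 0.05.

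Cox8a, the common isoform of subunit VIII, was higher in Runx1 iTG in both populations. Its signals were 1832 and 2107 in WT bulge, 3173 and 2827 in Runx1 iTG bulge, 2981 and 4557 in WT CD34-negative cells, and 5926 and 5490 in Runx1 iTG CD34-negative cells. Within each population both transgenic arrays lay above both WT arrays. The averaged difference was 0.62 ± 0.17 (95% interval 0.23 to 1.00; limma, adjusted p = 0.33), short of the threshold. Sdhd differed by 1.11 ± 0.36 in bulge cells (limma, adjusted p = 0.72). Ndufc2 (0.70) in bulge cells and Ndufa6 (0.52, averaged), both accessory subunits of complex I, were also short of it.

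**Figure D5:**
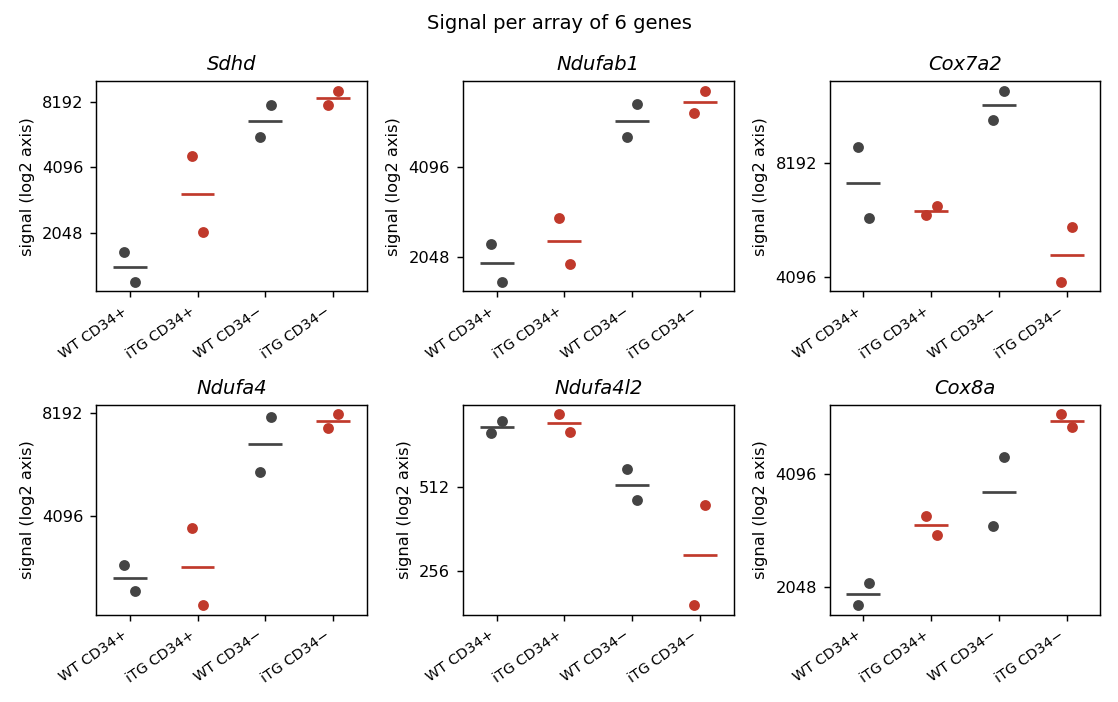
Signal on each array (log2 axis) for 6 genes, with WT in dark grey and Runx1 iTG in red; bars are means of log2 values of the 2 arrays. Sdhd, Ndufab1, Ndufa4 and Cox8a are higher in CD34− than CD34+ cells within each genotype, Ndufa4l2 is lower, and Cox7a2 is lowest in Runx1 iTG CD34− cells.

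By complex, the genotype medians in bulge cells were 0.16 for complex I, 0.16 for complex II, 0.27 for complex III, -0.13 for complex IV and 0.14 for the ATP synthase. In CD34-negative cells they were 0.26, 0.21, 0.13, 0.12 and 0.12 in the same order. In bulge cells the 10 common subunits of complex IV had a median of 0.06 and its 8 tissue-restricted isoforms, 5 of them not above background on all arrays, one of -0.90. Of the 8 complex I assembly factors, 8 were higher in Runx1 iTG bulge cells (median 0.34) and 5 in CD34-negative cells (median 0.13), and none passed the test.

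Genes around the respiratory chain also rose in CD34-negative cells, averaged over genotypes, against the same 9.17% of all genes. Of 17 electron carrier and coenzyme Q genes, 11 rose and 1 fell, with a median of 0.93. Coq3 and Coq6, both in coenzyme Q synthesis, differed by 2.32 and 1.97, and Coq8a fell by 0.90. Cytochrome c1 (Cyc1), counted in this list, differed by 1.60. It is a subunit of complex III whose symbol the rule does not match. Of 22 citric acid cycle and pyruvate dehydrogenase genes, 17 rose and 1 fell, with a median of 1.01. Dlat, a pyruvate dehydrogenase subunit, differed by 1.95, and the pyruvate dehydrogenase kinase Pdk4 was at least 34.1-fold higher, its bulge mean being below background. The related kinase Pdk2 fell by 0.93.

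Of 76 mitochondrial ribosomal protein genes, 43 rose and 0 fell, with a median of 0.71 (Mrpl11 1.78, Mrpl12 1.55). Of 36 further assembly factors 13 rose, with Acad9, needed for complex I assembly, at 1.79 and Atpaf1, which acts on the ATP synthase, at 1.41. Of 8 antioxidant genes, not all of them confined to mitochondria, 5 rose, Gsr by 1.97 and the mitochondrial Sod2 by 1.72. Among 16 regulators of mitochondrial biogenesis 3 rose, including Ppargc1b (1.42) and Tfam (1.21), which maintains mitochondrial DNA. Of 10 carrier and uncoupling genes 4 rose, including the ADP/ATP carrier Slc25a5 (1.00) and the ATP synthase inhibitor Atpif1 (0.78).

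Of 13 glycolysis genes, 3 rose and 1 fell, with a median of 0.21. Ldhb, a lactate dehydrogenase subunit, differed by 2.49 and Pgk1 by 1.18, while Hk2, a hexokinase of the first step, fell by 2.59. Between genotypes, 0 genes of these lists were called by limma in either population.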

How the data were processed

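Per the labels' protocols, 5 ng of RNA per sample was amplified (Ovation Pico WTA) and biotin-labelled (Encore) for Affymetrix Mouse Genome 430 2.0 arrays. Deposited values hold an intensity per probe set, already summarised by the authors; the program they used was not given in the sources used here.

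Without the control probe sets, arrays were brought to the same 75th percentile, and values under 2.41 (3.48% of them) were raised to it. Log2 was taken of the deposited intensities so scaled. Gene names came from the platform annotation, and the single-symbol probe set with the highest mean stood for a gene. One model with 4 group means was fitted to all 18193 genes with limma 3.58.1 in R 4.3.3 (intensity trend, 4 residual degrees of freedom), with Benjamini-Hochberg adjustment over all genes and a threshold of 0.05, for 7 contrasts. The median SE of a difference was 0.52 over all genes. The fit was tested on simulated data. "At least N-fold" divides the brighter mean by the background limit of 31.1 (95th percentile of 27 control probe sets), a limit known when the lists were set.

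Named members are up to 10 called per contrast and direction, the 2 smallest p per complex for 3 contrasts, complex II, and the isoform sets; from each wider list, up to 2 called per direction. Other genes named for their role were chosen after their values were seen. The members and lists were chosen with earlier results of these data known. Alternatives covered scaling, quantile normalization, an offset, probe set averaging, a filter on dim genes, the prior variance, the samples fitted, age, a replicate block and each array left out.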

Additional observations from a re-analysis of the deposited data

How the results depend on the processing

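The averaged count of members past the threshold between populations, 54, was 18 without the intensity trend and 12 with day 20 arrays only, and 29 to 59 with 1 array left out. The WT count of 14 was 28 without the 40% dimmest genes, 0 without the intensity trend, 3 with only the groups compared and 2 with day 20 arrays only, and 0 to 15 with 1 array left out. The Runx1 iTG count of 24 was 0, 7 and 0 under the last 3 of these, and 1 to 23 with 1 array left out. With day 20 arrays only, the transgenic groups hold 1 array each, assumed to vary like the others. The transgenic arrays left out are also the female-typed ones, while WT keeps both types, so age and sex type cannot be told apart in this setting. The causes were not tested. Over all 18193 genes, 411 were called in WT and 708 in Runx1 iTG without the intensity trend. That setting called 0 members in each genotype, so it left no excess of members over all genes there. Averaged over genotypes it called 2043 genes, a lower share than that of the members. The fits with only the groups compared called 752 genes in WT and 832 in Runx1 iTG. The median genotype difference in bulge cells ranged from -0.092 to 0.41 with 1 array left out. Uqcrq reversed to -0.21 with the mean of its probe sets. The averaged population median was 0.69 to 0.82 under the other alternatives, and no member was called between genotypes under any alternative run. Quantile normalization moved the median of all genes between populations from -0.09 to 0.03 and left 52 members called higher and 1 lower.

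The replicate block gave 55 members past the threshold between populations, averaged (54 higher, 1 lower). Replicates of the same number did not deviate together over all genes (correlations of -0.03 to 0.08 between groups), so the numbers were not taken as pairs, though they mark the male-typed and female-typed samples. Of 31 named members called between populations, 20 kept their call in all 8 fits that left out 1 array.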
